A study of Mus musculus with 10 samples.

Results

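The chaperone genes described here are 70 of the 15914 protein-coding genes listed for mouse prefrontal cortex. They were chosen by gene symbol: every listed DNAJA, DNAJB and DNAJC gene, the HSPA genes except Hspa5, the HSPB genes, Hspd1, Hspe1, Hsph1, both cytosolic HSP90 genes and Bag1 to Bag6. The donors were C57BL/6J mice of wild-type genotype, all exposed to hypobaric hypoxia, meaning thin air at reduced pressure. In 5 of the 10 libraries the exposure was the only labelled treatment, and in the other 5 it was followed by photobiomodulation (PBM), a treatment of tissue with laser light. No unexposed mice and no mice given light without hypoxia were analysed here, so each comparison asks how PBM after hypoxia differed from hypoxia alone. Age, sex, the wavelength and dose of light, and whether a library held 1 or several mice are not given in the labels used here. The p-values therefore measure the spread between these libraries.

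Chaperones bind unfolded stretches of other proteins and keep them from clumping. HSP70 proteins, encoded by the HSPA genes, grip and release their clients by splitting ATP. DNAJ proteins deliver clients and trigger the ATP splitting, while the large HSP70-like proteins and most BAG proteins swap the spent nucleotide and so release the client. HSP90 proteins finish the folding of kinases and receptors, small heat shock proteins (HSPB) hold unfolded proteins without ATP, and the HSP60/HSP10 chamber folds proteins inside mitochondria. Heat shock factor 1 (HSF1) switches on many of these genes during proteotoxic stress. Neurons lean on the same machinery at the synapse, where it strips clathrin coats from vesicles and keeps fusion proteins folded.

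Between 29283937 and 35957148 reads fell in listed genes in each library. Levels are in FPKM, which scales fragments by transcript length and library total, and a log2 change is the mean log2(FPKM + 1) after PBM minus that in hypoxia alone. Calls were made by limma-trend where p, adjusted by Benjamini-Hochberg over all 14406 tested genes, was under 0.05. Markers of cortical excitatory neurons were present in every library, where 12 genes summed to 1278 to 1346 FPKM in the hypoxia libraries and 1346 to 1414 FPKM in the PBM libraries. The libraries also differed in markers of striatal medium spiny neurons, the main neurons of the region beneath the cortex. Of these 17 markers 16 were called lower after PBM, none was at 0 in every library, and their sum ran from 362 to 669 FPKM in the hypoxia libraries and from 175 to 323 FPKM in the PBM libraries. In bulk tissue, fewer cells of a type and less RNA per cell cannot be told apart.

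The chaperone genes as a whole stayed near the same level in both groups. Their summed level was 3530 ± 58.2 FPKM in hypoxia and 3528 ± 68.5 FPKM in hypoxia plus PBM (SD, n = 5 each), and they took 1.03% of the reads of listed genes in both groups. A minimum of 0.1 FPKM in 5 libraries left 68 members for testing. Dnajc5b, a relative of the synaptic vesicle chaperone Dnajc5, was not tested, with 0 to 10 reads per hypoxia library and 0 to 1 per PBM library. Hspb7, a small heat shock protein of heart muscle, was not tested either, with 0 to 10 and 2 to 12 reads.

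Of the 68 tested members, 2 were called and both were lower after PBM: Dnajb5 and Dnajb4. That is 2.94% of the members, against 2.85% of all tested genes called in either direction and 1.7% called lower. No member was called higher by limma-trend, against 1.15% of all tested genes. At an unadjusted p under 0.05 there were 3 members on the higher side and 7 on the lower, which is 14.7% of the members beside 19.6% of all tested genes. Limma-voom on recovered reads called 1 member higher and 2 lower, beside 270 genes higher and 312 lower over all tested genes. The share of members called was thus near the background. The median log2 change of the members was -0.01, with 31 positive and 37 negative values, and the median over all tested genes was 0.00. The median size of the change without its sign was 0.04 in the members and 0.06 over all tested genes. For 61 of the 68 members the whole 95% interval of the difference lay within a 1.25-fold change in either direction. The same held for 12967 of all 14406 tested genes. The 7 members with a wider interval were Dnajb3, Dnajb5, Dnajc2, Dnajc17, Hspa1b, Hspb2 and Hspb8. The log2(FPKM + 1) scale shrinks changes of low genes. Hspa1l counted as within the bound, though its ratio of mean FPKM, PBM over hypoxia, was 1.27. In the authors' deposited table, q was under 0.05 for 6 of 70 members (8.57%), beside 6.4% of all listed genes.

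**Figure D1:**
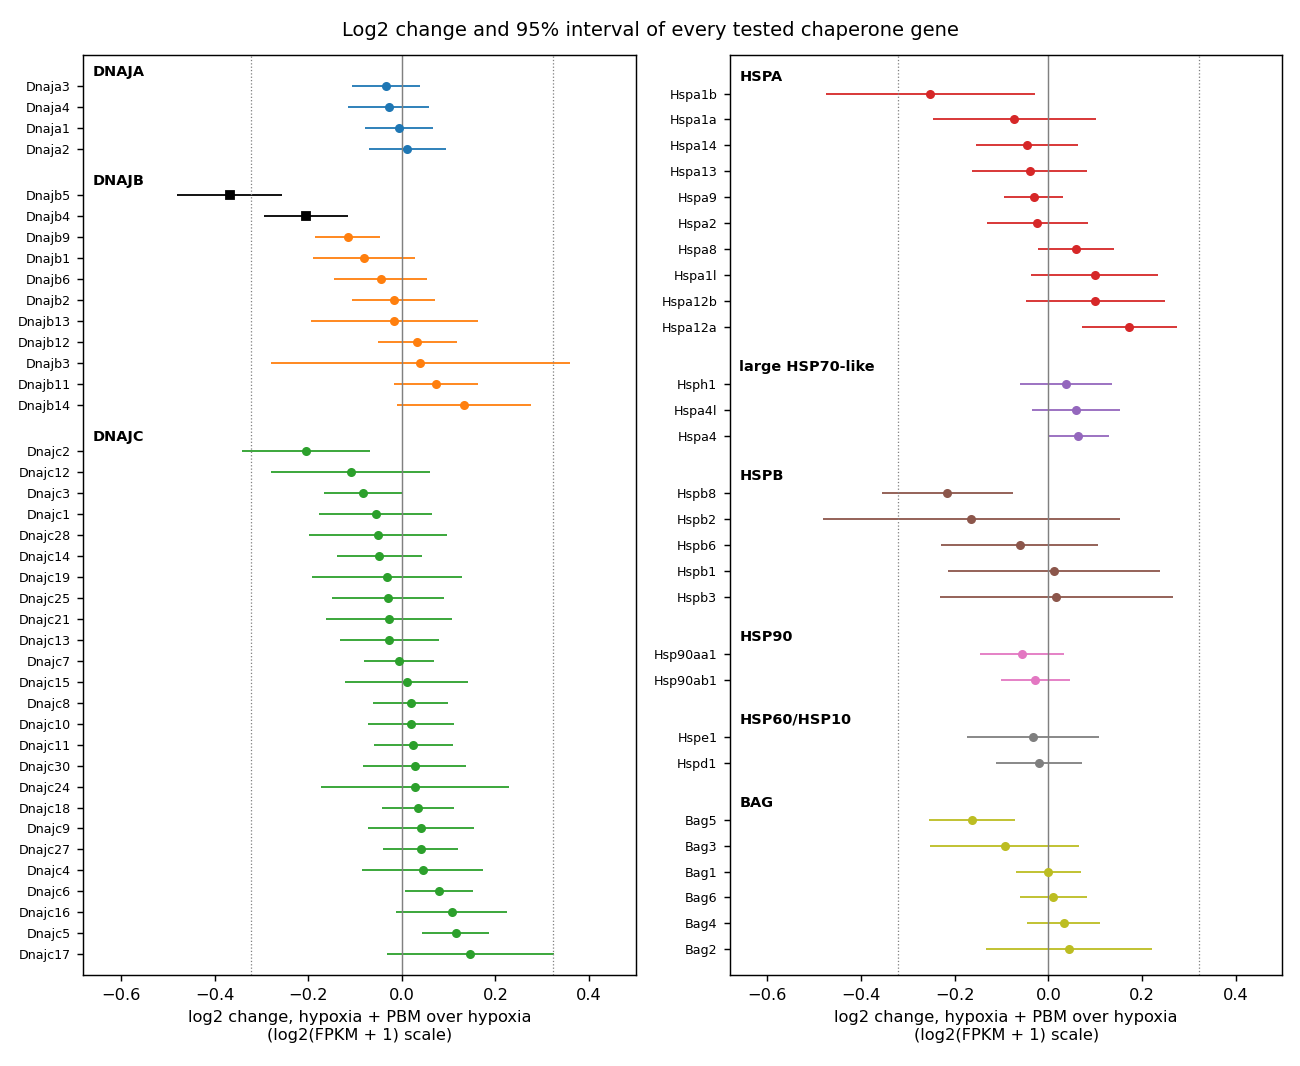
Log2 change of each of the 68 tested chaperone genes (x axis, log2(FPKM + 1) after PBM minus hypoxia) with its 95% interval as a bar, ordered within families. Black squares are the 2 called genes, Dnajb5 and Dnajb4, both on the lower side, and dotted lines mark a 1.25-fold change.

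Dnajb5, a class B DNAJ protein known from heart muscle as a partner of thioredoxin and the repressor HDAC4, had the largest change of the tested members. Its level in hypoxia libraries 1 to 5 was 33.5, 39.2, 34.8, 35.7 and 39.4 FPKM, and in PBM libraries 1 to 5 it was 28.0, 25.6, 29.3, 27.9 and 29.4 FPKM. Every PBM library was below every hypoxia library, with a gap between 29.4 and 33.5 FPKM. The mean fell from 36.5 ± 2.68 to 28.0 ± 1.52 FPKM (SD, n = 5 each), a decrease in level of 23.2%. On the log2 scale Dnajb5 changed by -0.37 (SE 0.052, 95% interval -0.48 to -0.26, limma adjusted p = 0.00481). Between 3251 and 5627 reads per library stood behind these values. Dnajb5 was called in all 10 fits that left out 1 library, where its log2 change ran from -0.40 to -0.34.

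Dnajb4, a close relative of Dnajb5 and Dnajb1 that passes clients to HSP70 in the cytosol, was the other called gene. Its level was 13.5, 12.7, 13.0, 12 and 13.5 FPKM in hypoxia libraries 1 to 5 and 11.5, 11.3, 10.6, 10.8 and 11.3 FPKM in PBM libraries 1 to 5. The groups did not overlap, though only 12 and 11.5 FPKM separated the nearest libraries. The mean fell from 13.0 ± 0.607 to 11.1 ± 0.402 FPKM (SD, n = 5 each), a decrease of 14.3%, and the log2 change was -0.20 (SE 0.041, 95% interval -0.29 to -0.12, limma adjusted p = 0.0207). The call of Dnajb4 was lost when hypoxia library 1, hypoxia library 5 or PBM library 3 was left out, with limma adjusted p of 0.0553, 0.0567 and 0.0535. Dnajb1, the heat-inducible founder of the class, had 22.3 ± 1.26 FPKM in hypoxia and 21.0 ± 1.38 FPKM after PBM (SD, n = 5 each), with overlapping libraries and a log2 change of -0.08 (95% interval -0.19 to 0.03, limma adjusted p = 0.411).

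Striatal markers, like both called genes, were lower after PBM as a group difference. The mean log2(FPKM + 1) of these markers was 3.59 ± 0.316 in hypoxia and 2.73 ± 0.299 after PBM (SD, n = 5 each), and the groups did not overlap. The library with the least striatal signal in each group, hypoxia library 4 and PBM library 3, was also the library with the least Dnajb4 in its group. Hypoxia library 5 had the most of both in its group. PBM library 5 had the highest striatal mean of its group, 2.99, but PBM library 1, at 2.74, had the most Dnajb4, 11.5 FPKM. For Dnajb5 the lowest libraries were hypoxia library 1 and PBM library 2. These library matches were picked after the values were seen, and the part of striatal tissue in either gene was not tested by them. With that striatal mean as a covariate, the log2 change of Dnajb5 was -0.39 (SE 0.099, limma adjusted p = 0.591) and that of Dnajb4 was -0.08 (SE 0.068, limma adjusted p = 0.933), and 0 of all 14406 genes were called. The SE of both genes was larger in this fit than without the covariate, and the striatal mean and the group can hardly be told apart in these libraries.

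**Figure D2:**
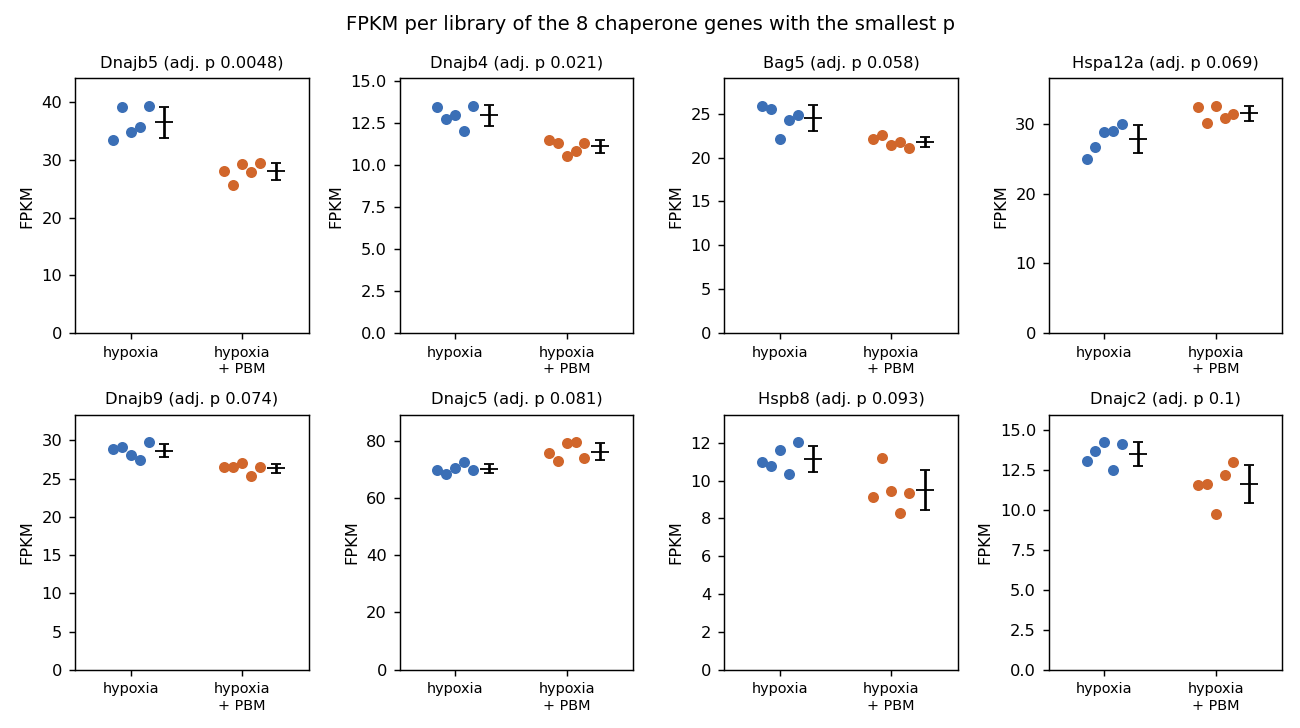
FPKM in each library (y axis, from 0) of the 8 chaperone genes with the smallest p, hypoxia in blue and hypoxia plus PBM in orange, with the group mean ± SD of 5 libraries in black beside the points. The Dnajb5 panel shows the widest gap, with 5 PBM libraries at 25.6 to 29.4 FPKM and 5 hypoxia libraries at 33.5 to 39.4 FPKM.

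The start regions of the 2 called genes are shown with any pair of the units that make up heat shock elements marked. HSF1 binds inverted repeats of GAA, searched here on both strands as a pair of units, GAANNTTC or TTCNNGAA. RefSeq promoter windows of build GRCm38.p6, covering 250 bases before to 50 bases after each start, were matched to 56 of the 70 members, some of which have several starts and so several windows. The submitters' processing notes name build GRCm39, so these windows serve for sequence alone. Each line gives the 150 bases before the start, 5′ to 3′ on the gene's strand, with paired units in capitals. The Dnajb4 stretches lie at chr3:152193846-152193995 and, for the other start, at chr3:152210084-152210233, both on the minus strand, and the Dnajb5 stretch, before the first of its 3 starts, at chr4:42949717-42949866 on the plus strand.
Dnajb4: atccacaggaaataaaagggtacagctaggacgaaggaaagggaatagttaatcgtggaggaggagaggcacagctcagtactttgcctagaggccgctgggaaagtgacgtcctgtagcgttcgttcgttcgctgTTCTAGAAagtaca
Dnajb4, other start: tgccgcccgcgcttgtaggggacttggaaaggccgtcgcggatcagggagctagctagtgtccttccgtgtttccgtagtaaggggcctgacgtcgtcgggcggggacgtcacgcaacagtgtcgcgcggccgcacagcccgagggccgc
Dnajb5: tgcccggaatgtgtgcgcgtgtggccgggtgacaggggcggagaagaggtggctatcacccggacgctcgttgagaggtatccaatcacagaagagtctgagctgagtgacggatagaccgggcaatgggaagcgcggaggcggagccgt
One of the 2 Dnajb4 windows holds 1 pair, beginning 14 bases before its start, and the window of the other start, which lies farther upstream, holds none. No pair was found in the 3 windows of Dnajb5 or the 2 of Dnajb1. Counting a gene once where any of its windows matched, a pair stood in 16 of the 56 matched members (28.6%). The share was 17.0% of all 27025 genes with a window and 14.3% of the 12517 listed genes among them. The longer element of 3 alternating units was found in 4 members (7.14%), Dnajb6, Hspd1, Hspe1 and Hsph1, of which Hspd1 and Hspe1 share 1 run. It was found in 0.662% of all genes with a window and in 0.551% of the listed ones. A match describes letters in a window and not a site in use.

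Among the members that missed the threshold, the next in order of p were Bag5, Hspa12a, Dnajb9, Dnajc5, Hspb8 and Dnajc2. Their limma adjusted p ran from 0.0578 for Bag5 to 0.1 for Dnajc2. Hypoxia and PBM values were fully separated in 5 of the 68 tested members (7.35%), beside 5.53% of all tested genes. These were Dnajb5, Dnajb4, Dnajb9, Dnajc5 and Hspa12a.

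The main folding machines of the cytosol, HSP70 and HSP90, gave the highest levels. Hspa8, the constitutive HSP70 of neurons, averaged 792 FPKM over the 10 libraries, Hsp90ab1, the constitutive HSP90, 774 FPKM, and Hsp90aa1, its stress-responsive counterpart, 362 FPKM. Together these 3 genes made up 54.6 ± 0.55% of the summed FPKM of the members in hypoxia and 54.7 ± 0.388% after PBM (SD, n = 5 each). No other member averaged over 100 FPKM, and Bag1 was next at a mean of 99.8 FPKM. There were 40 members between 10 and 100 FPKM, 20 between 1 and 10 and 7 under 1, and the median member stood at 15.6 FPKM, beside 4.26 FPKM over all listed genes.

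**Figure D3:**
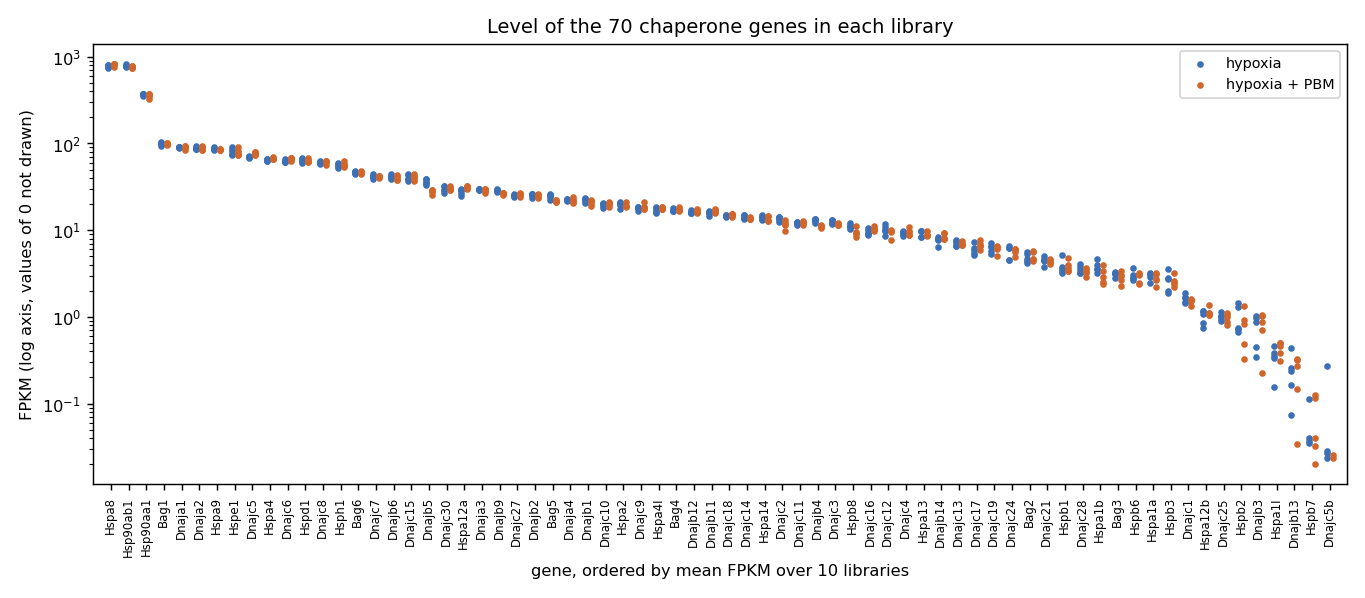
FPKM of the 70 chaperone genes in each of 10 libraries (log y axis), with genes on the x axis in order of mean level, hypoxia in blue and hypoxia plus PBM in orange. Hspa8, Hsp90ab1 and Hsp90aa1 stand above all others, and Dnajc5b and Hspb7 end the row.

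Hspa8 had 739, 776, 805, 793 and 765 FPKM in hypoxia libraries 1 to 5 and 757, 819, 824, 815 and 825 FPKM in PBM libraries 1 to 5. PBM library 1 lay within the hypoxia range and the other 4 lay above it. The log2 change was 0.06 (95% interval -0.02 to 0.14, limma adjusted p = 0.427). Hsp90ab1 had 758, 814, 783, 776 and 776 FPKM in hypoxia and 744, 787, 745, 768 and 788 FPKM after PBM, with a log2 change of -0.03 (95% interval -0.10 to 0.05, limma adjusted p = 0.695). Hspa8 and Hsp90ab1 lay within their spread of each other in hypoxia, where Hspa8 was the higher in 2 of 5 libraries. In the PBM libraries Hspa8 was the higher in 5 of 5, a count that was not tested. Hsp90aa1 had 369, 376, 376, 376 and 350 FPKM in hypoxia and 362, 356, 322, 369 and 369 FPKM after PBM. Its groups overlapped, and the log2 change was -0.06 (95% interval -0.14 to 0.03, limma adjusted p = 0.494). Hspa2, an HSP70 gene best known from the testis, had 19.7 ± 1.34 and 19.3 ± 1.00 FPKM (SD, n = 5 each).

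The inducible HSP70 genes Hspa1a and Hspa1b, which are nearly silent in unstressed brain, were low in both groups. Hspa1b had 3.53, 3.56, 4.6, 3.20 and 4.01 FPKM in hypoxia libraries 1 to 5 and 3.36, 2.92, 3.96, 2.38 and 2.55 FPKM in PBM libraries 1 to 5. The ranges overlapped between 3.20 and 3.96 FPKM, and the log2 change was -0.25 (SE 0.103, 95% interval -0.48 to -0.03, limma adjusted p = 0.199). Hspa1a had 2.97 ± 0.32 FPKM in hypoxia and 2.78 ± 0.414 FPKM after PBM (SD, n = 5 each), with a log2 change of -0.07 (95% interval -0.25 to 0.10, limma adjusted p = 0.664). Both genes encode nearly the same protein, so the split of reads between them is uncertain. No source used here says whether reads that fit both genes were counted, so both levels and their sum may be too low. The summed level of Hspa1a and Hspa1b was 6.75 ± 0.707 FPKM in hypoxia and 5.82 ± 0.947 FPKM after PBM (SD, n = 5 each), with overlapping libraries. Their start regions, given next, show how alike the copies are. The Hspa1a stretch lies at chr17:34972157-34972306 and the Hspa1b stretch at chr17:34959239-34959388, both on the minus strand of GRCm38.p6, from RefSeq, with the paired units in capitals.
Hspa1a: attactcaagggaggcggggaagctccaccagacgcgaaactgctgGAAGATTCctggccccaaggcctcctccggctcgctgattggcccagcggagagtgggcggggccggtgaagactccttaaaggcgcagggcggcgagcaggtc
Hspa1b: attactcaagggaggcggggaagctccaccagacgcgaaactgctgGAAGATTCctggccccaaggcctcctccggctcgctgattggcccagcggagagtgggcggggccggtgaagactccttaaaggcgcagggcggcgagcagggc
Over the 250 bases before the start the copies matched at 247 positions (98.8%), and both held a pair that begins 104 bases before the start.

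A list of 13 HSF1-responsive members, in which Hspa8 and Hsp90ab1 are mostly constitutive, gave 0 calls in either direction by limma-trend and by limma-voom. It held Hspa1a, Hspa1b, Hspa8, Hspa4l, Hsph1, Hsp90aa1, Hsp90ab1, Dnaja1, Dnajb1, Hspb1, Hspd1, Hspe1 and Bag3. With 2.85% of all tested genes called by limma-trend, 0 calls among 13 genes cannot be told from the background. In this list 4 log2 changes were positive and 9 negative, and the median was -0.03. An unadjusted p under 0.05 was found for 1 member, Hspa1b (7.69%), beside 19.6% of all tested genes. The summed level of the 13 members was 2272 ± 52.3 FPKM in hypoxia and 2272 ± 61.3 FPKM after PBM (SD, n = 5 each). The sum is dominated by Hspa8 and the HSP90 genes. The mean of log2(FPKM + 1), which gives each gene equal weight, was 5.36 ± 0.051 in hypoxia and 5.33 ± 0.043 after PBM (SD, n = 5 each), and the ranges of 5.31 to 5.45 and 5.28 to 5.38 overlapped.

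**Figure D4:**
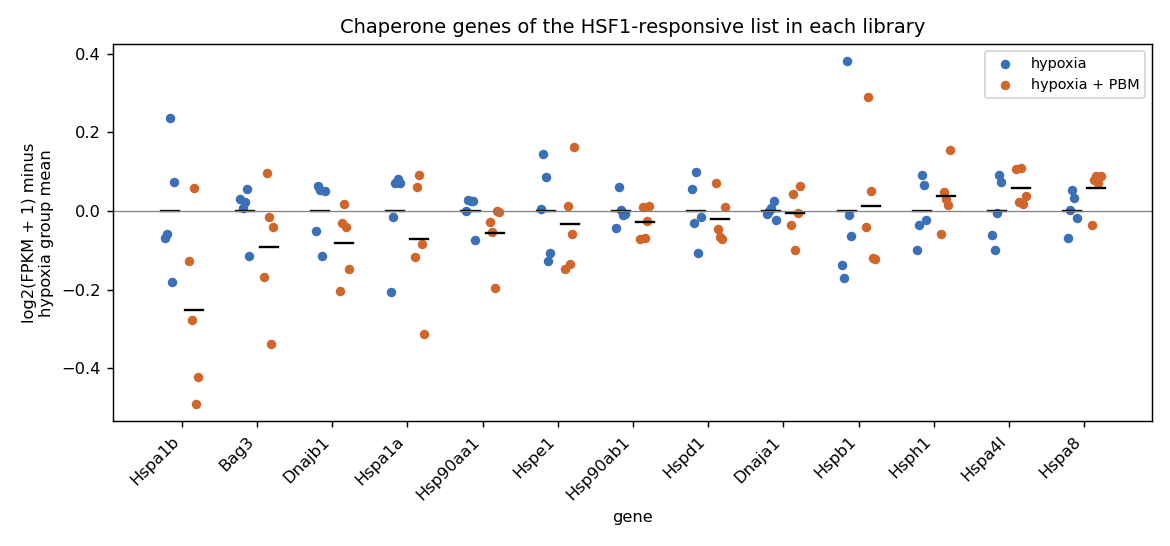
The 13 chaperone genes of the HSF1-responsive list, ordered by log2 change on the x axis, with each library's log2(FPKM + 1) minus the hypoxia group mean on the y axis. Black lines are means of 5 libraries, and hypoxia (blue) and hypoxia plus PBM (orange) overlap for every gene, with Hspa1b at the lower end and Hspa8 at the upper.

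The DNAJA and DNAJB genes other than Dnajb5 and Dnajb4 gave 0 calls by limma-trend and by limma-voom, and Dnajb9 alone had an unadjusted p under 0.05. The DNAJA family of HSP70 partners, in which Dnaja3 works in mitochondria, summed to 230 ± 3.32 FPKM in hypoxia and 230 ± 8.58 FPKM after PBM (SD, n = 5 each), with 1 positive and 3 negative log2 changes. Its members ran from -0.03 for Dnaja3 (limma adjusted p = 0.629) to 0.01 for Dnaja2, and Dnaja1, the most abundant, had 90.4 ± 1.09 and 90.1 ± 4.08 FPKM (limma adjusted p = 0.943). Dnaja4 had 22.4 ± 0.434 and 22.0 ± 1.31 FPKM (limma adjusted p = 0.749). The 11 DNAJB genes summed to 208 ± 5.43 FPKM in hypoxia and 194 ± 2.40 FPKM after PBM (SD, n = 5 each), from 201 to 214 and from 191 to 197 FPKM, so these sums did not overlap. The sum holds members of more than 1 compartment, among them Dnajb9 and Dnajb11 of the endoplasmic reticulum. Dnajb5 alone supplied 8.47 of the 13.4 FPKM between the means. Of the 11, 4 had a positive log2 change and 7 a negative one, with a median of -0.02. Dnajb6, which blocks the clumping of polyglutamine proteins, was the most abundant of the family at 41.4 ± 2.29 and 40.1 ± 2.25 FPKM (limma adjusted p = 0.628). Dnajb2, which is enriched in neurons, had 25.3 ± 1.24 and 25 ± 1.01 FPKM. Dnajb3 and Dnajb13, best known from the male germ line, stayed under 1 FPKM on average in both groups.

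The DNAJC family is the most varied, since its members share the J domain and little else. Of 26 listed genes 25 were tested, 14 with a positive and 11 with a negative log2 change, with a median of 0.02 and 0 called by limma-trend or limma-voom. At an unadjusted p under 0.05 there were 2 on the higher side and 1 on the lower, which is 12% of the 25 beside 19.6% of all tested genes. The family summed to 499 ± 7.65 FPKM in hypoxia and 509 ± 4.88 FPKM after PBM (SD, n = 5 each). The highest log2 change belonged to Dnajc17, a nuclear member tied to splicing, at 6.02 ± 0.876 and 6.75 ± 0.678 FPKM (log2 change 0.15, limma adjusted p = 0.356).

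At the synapse, Dnajc5 encodes cysteine string protein alpha, which rides on synaptic vesicles and with Hspa8 keeps the fusion protein SNAP-25 folded. Dnajc5 had 69.8, 68.2, 70.6, 72.5 and 69.9 FPKM in hypoxia libraries 1 to 5 and 75.6, 72.8, 79.2, 79.4 and 73.9 FPKM in PBM libraries 1 to 5. The PBM libraries were all above the hypoxia libraries, by as little as 72.5 against 72.8 FPKM. The log2 change was 0.12 (SE 0.033, 95% interval 0.04 to 0.19) and missed the threshold (limma adjusted p = 0.0807), while the authors' deposited table gave Dnajc5 a q of 0.0381. Dnajc6, or auxilin, which recruits Hspa8 to uncoat clathrin vesicles in neurons, had 61.9, 61.2, 60.3, 66.1 and 62.9 FPKM in hypoxia and 67.2, 64.4, 67.4, 67.9 and 63.4 FPKM after PBM. Hypoxia library 4 lay among the PBM libraries, and the log2 change was 0.08 (95% interval 0.01 to 0.15, limma adjusted p = 0.213). Dnajc13, an endosomal HSP70 partner, had 7.11 ± 0.455 and 6.95 ± 0.338 FPKM. Markers of cortical excitatory neurons, cells rich in such synapses, summed to 1306 ± 24.9 FPKM in hypoxia and 1378 ± 27.8 FPKM after PBM (SD, n = 5 each). Of these 12 markers 9 were positive and 3 negative, 3 and 2 with an unadjusted p under 0.05, with 0 called by limma-trend and 2 higher and 1 lower by limma-voom, the lower being Bcl11b (adjusted p = 0.0302). Their part in the Dnajc5 and Dnajc6 values was not tested.

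Dnajc2, a ribosome-bound member that works with Hspa14 on emerging chains, had 13.1, 13.7, 14.2, 12.5 and 14.1 FPKM in hypoxia libraries 1 to 5 and 11.6, 11.6, 9.78, 12.2 and 13.0 FPKM in PBM libraries 1 to 5. Only PBM library 5 reached into the hypoxia range. The log2 change was -0.20 (SE 0.063, 95% interval -0.34 to -0.07, limma adjusted p = 0.1), and the authors' deposited table gave Dnajc2 a q of 0.0490. With the striatal mean as a covariate, a fit in which 0 of all 14406 genes were called, the log2 change of Dnajc2 was 0.07 (limma adjusted p = 0.968). Bag5, Hspa12a, Dnajc5 and Hspb8 kept their signs in that fit. Its partner Hspa14 had 14.0 ± 0.695 and 13.5 ± 0.966 FPKM, a log2 change of -0.05 (limma adjusted p = 0.657).

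Hspa12a, a divergent HSP70 that is rich in brain, had the highest log2 change of the 68 tested members. Its level was 25, 26.7, 28.8, 29.0 and 30.0 FPKM in hypoxia libraries 1 to 5 and 32.5, 30.2, 32.7, 30.9 and 31.5 FPKM in PBM libraries 1 to 5. The groups did not overlap, but hypoxia library 5 and PBM library 2 were only 30.0 and 30.2 FPKM. The log2 change was 0.17 (SE 0.047, 95% interval 0.07 to 0.27) and missed the threshold (limma adjusted p = 0.0692). Limma-voom on recovered reads called Hspa12a higher (log2 change 0.18, adjusted p = 0.0473), and the authors' deposited table gave it a q of 0.0185. Its sister gene Hspa12b, known from endothelial cells, had 1.00 ± 0.191 and 1.14 ± 0.133 FPKM (limma adjusted p = 0.455). The HSPA family of 10 summed to 942 ± 26.1 FPKM in hypoxia and 974 ± 27.1 FPKM after PBM (SD, n = 5 each), 4 positive and 6 negative, with a median of -0.03.

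The nucleotide exchange factors, which free clients from HSP70, belong to both the large HSP70-like and the BAG families. The 3 large HSP70-like genes had positive log2 changes, except Hspa4l with the striatal mean as a covariate, and none was called by limma-trend or limma-voom, nor had any an unadjusted p under 0.05. Hspa4 had 64.5 ± 1.81 and 67.5 ± 1.52 FPKM (log2 change 0.06, limma adjusted p = 0.264). Hsph1, the heat-inducible HSP110, had 55.7 ± 3.08 and 57.1 ± 3.13 FPKM (log2 change 0.04, limma adjusted p = 0.703), and Hspa4l had 17.2 ± 1.04 and 17.9 ± 0.603 FPKM (log2 change 0.06, limma adjusted p = 0.497). Of the 6 BAG genes 3 were positive and 3 negative, with a median of 0.00 and 0 called by either limma fit. Bag5, a BAG protein with several BAG domains that restrains HSP70 and the ubiquitin ligase parkin, had 25.9, 25.6, 22.1, 24.3 and 24.8 FPKM in hypoxia and 22.1, 22.6, 21.4, 21.7 and 21.1 FPKM after PBM. Hypoxia library 3 lay among the PBM libraries and the other 4 lay above them. The log2 change of Bag5 was -0.16 (SE 0.042, 95% interval -0.26 to -0.07, limma adjusted p = 0.0578), and without hypoxia library 3 it was called (limma adjusted p = 0.0195). The authors' deposited table gave Bag5 a q of 0.0147. Bag1, which links HSP70 to the proteasome, was the most abundant at 99.8 ± 3.67 and 99.8 ± 2.15 FPKM, with a 95% interval of the log2 change from -0.07 to 0.07 (limma adjusted p = 0.997). Bag2, Bag4 and Bag6 had log2 changes of 0.04, 0.03 and 0.01.

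The small heat shock proteins named Hspb were scarce, with 21.6 ± 0.888 FPKM in hypoxia and 19.6 ± 2.04 FPKM after PBM in sum (SD, n = 5 each). Cryab, a small heat shock protein outside the members, had means of 57.9 FPKM in hypoxia and 50.2 FPKM after PBM and is given further on. Of the 5 tested Hspb genes 2 were positive and 3 negative, and 0 were called by either limma fit. Hspb8, which acts with Bag3 to send damaged proteins to autophagy, made up about as much as all other Hspb genes together. It had 11, 10.8, 11.6, 10.4 and 12 FPKM in hypoxia and 9.14, 11.2, 9.47, 8.28 and 9.36 FPKM after PBM. PBM library 2 lay within the hypoxia range and the other 4 lay below it. The log2 change was -0.22 (SE 0.065, 95% interval -0.36 to -0.08, limma adjusted p = 0.0926), and without PBM library 2 it was called (limma adjusted p = 0.0314). Its partner Bag3 had 3.10 ± 0.185 and 2.86 ± 0.434 FPKM (log2 change -0.09, limma adjusted p = 0.525). Hspb1, or HSP27, which rises in stressed glia, had 3.82 ± 0.802 and 3.84 ± 0.6 FPKM, from 89 to 146 reads per hypoxia library and 102 to 137 per PBM library. Its 95% interval ran from -0.22 to 0.24 on the log2 scale (limma adjusted p = 0.968) and held changes of either sign. Hypoxia library 3, at 5.21 FPKM, stood above the other 9 libraries, and without it the SE went from 0.105 to 0.0817 and the log2 change to 0.11 (limma adjusted p = 0.528). Hspb2, a muscle-type member, had 10 to 43 reads per library and a log2 change of -0.16 (95% interval -0.48 to 0.15, limma adjusted p = 0.579).

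In mitochondria, where photobiomodulation is often proposed to act, none of the 9 members with a role there was called by limma-trend or limma-voom. None had an unadjusted p under 0.05, beside 19.6% of all tested genes, and limma-trend called 2.85% of all tested genes. The 9 were grouped after the values were seen, and Trap1, a mitochondrial HSP90 outside the members, is given further on. The log2 changes of the 9 lay between -0.05 for Dnajc28 and 0.03 for Dnajc30, 3 positive and 6 negative. Hspa9, or mortalin, the HSP70 of the matrix, had 87.1 ± 2.35 and 85.2 ± 1.37 FPKM (limma adjusted p = 0.589). The chaperonin Hspd1, or HSP60, had 64.2 ± 3.59 and 63.2 ± 2.7 FPKM (limma adjusted p = 0.832), and its lid Hspe1, or HSP10, had 81.7 ± 6.77 and 79.8 ± 7.31 FPKM (limma adjusted p = 0.824). Hspd1 and Hspe1 are read in opposite directions from one shared region, and their start regions are given because they carry runs of overlapping units. The Hspd1 stretch lies at chr1:55087933-55088082 on the minus strand and the Hspe1 stretch at chr1:55087998-55088147 on the plus strand of GRCm38.p6, from RefSeq, and the capitals mark a run of overlapping pairs.
Hspd1: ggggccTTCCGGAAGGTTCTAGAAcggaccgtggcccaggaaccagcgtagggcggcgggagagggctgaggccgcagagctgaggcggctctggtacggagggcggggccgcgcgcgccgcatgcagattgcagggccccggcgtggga
Hspe1: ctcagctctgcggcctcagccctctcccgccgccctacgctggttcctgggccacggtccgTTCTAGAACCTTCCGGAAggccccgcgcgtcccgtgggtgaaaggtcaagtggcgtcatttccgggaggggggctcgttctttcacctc
The capitals in both lines are the same double-stranded run, which holds 3 overlapping pairs and begins 144 bases before this start of Hspd1 and 89 bases before that of Hspe1. A second Hspd1 window holds no pair.

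In the endoplasmic reticulum the excluded Hspa5 is the central HSP70. Of the 6 members grouped there, 2 had a positive and 4 a negative log2 change, and 0 were called by either limma fit. The DNAJB members Dnajb12 and Dnajb14, both with positive log2 changes, were not counted in this group. Dnajb9, which reins in the stress sensor IRE1, had 28.8, 29.1, 28.1, 27.5 and 29.7 FPKM in hypoxia and 26.5, 26.5, 27.0, 25.4 and 26.5 FPKM after PBM. The groups did not overlap, with 27.5 and 27.0 FPKM as the nearest values, and the log2 change was -0.12 (95% interval -0.19 to -0.05, limma adjusted p = 0.0739). Dnajb11, a client-binding partner of Hspa5, stood on the other side at 15.8 ± 0.774 and 16.7 ± 0.642 FPKM (log2 change 0.07, limma adjusted p = 0.358). Dnajc3, which also restrains the kinase PERK, had 12.4 ± 0.581 and 11.6 ± 0.261 FPKM (log2 change -0.08, limma adjusted p = 0.265). Hspa5 itself had 89.7 ± 8.91 and 87.5 ± 6.52 FPKM (limma adjusted p = 0.828), and Hsp90b1, the HSP90 of this compartment, had 102 ± 6.95 and 110 ± 2.48 FPKM (log2 change 0.11, limma adjusted p = 0.178).

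Genes that work with the members gave no calls by limma-trend, and their counts at an unadjusted p under 0.05 stand beside 19.6% of all tested genes. Of 6 tested heat shock factors and their regulators, 4 were positive and 2 negative, with Hsf2 at -0.10 (limma adjusted p = 0.363) and Hsf4 at 0.08 (limma adjusted p = 0.524), and none had an unadjusted p under 0.05. Of 21 HSP90 cochaperones, 9 were positive and 12 negative, 1 and 3 of them with an unadjusted p under 0.05. Cacybp, which binds a ubiquitin ligase complex, had 43.8 ± 2.3 and 38.5 ± 2.6 FPKM (log2 change -0.18, limma adjusted p = 0.068, and 0.0479 by limma-voom), and Tomm34, which shuttles mitochondrial precursors, had a log2 change of 0.15 (limma adjusted p = 0.0728). Of 15 HSP70 partners outside the rule, 5 were positive and 10 negative, 1 and 2 with an unadjusted p under 0.05, and Tomm70a (-0.12, limma adjusted p = 0.0983) and Hyou1 (0.14, limma adjusted p = 0.204) had the smallest p.

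The 8 tested subunits of the CCT chaperonin, which folds actin and tubulin, all had negative log2 changes with all 10 libraries and FPKM as deposited. Cct8 turned positive under upper-quartile scaling and without hypoxia library 2, PBM library 2 or PBM library 3, and 6 of the 8 were positive with the striatal mean as a covariate. The median of the 8 was -0.05, with 2 (25%) at an unadjusted p under 0.05, beside 19.6% of all tested genes, and 0 called by limma-trend or limma-voom. Their summed level was 650 ± 23.8 FPKM in hypoxia and 624 ± 19.0 FPKM after PBM (SD, n = 5 each), with overlapping libraries. Tcp1, the first of them by p, had 99.7 ± 4.34 and 91.9 ± 2.62 FPKM (log2 change -0.12, limma adjusted p = 0.0983), followed by Cct5 at -0.09 (limma adjusted p = 0.205). Of 8 prefoldin genes, which hand clients to CCT, 2 were positive and 6 negative, 1 with an unadjusted p under 0.05, led by Vbp1 at -0.18 (limma adjusted p = 0.183) and Pfdn4 at -0.19 (limma adjusted p = 0.307). Of 13 tested genes on a list of further heat shock proteins, 8 were positive and 5 negative, 3 and 2 with an unadjusted p under 0.05. That list shares 1 gene with the members. Cryab, the small heat shock protein of oligodendrocytes and astrocytes, had 57.9 ± 4.04 and 50.2 ± 3.41 FPKM (log2 change -0.20, limma adjusted p = 0.0599, and 0.046 by limma-voom), and Trap1, the mitochondrial HSP90, had 26.6 ± 1.14 and 29.3 ± 1.09 FPKM (log2 change 0.13, limma adjusted p = 0.0799). Of 4 cold-inducible genes, 2 were positive and 2 negative, 2 and 1 with an unadjusted p under 0.05. The positive ones were Srsf5 at 0.11 (limma adjusted p = 0.153) and Rbmx at 0.13 (limma adjusted p = 0.18). The negative ones were Cirbp at -0.26 (limma adjusted p = 0.234) and Rbm3 at -0.14 (limma adjusted p = 0.478).

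Markers of other cells were tested in the same fit. Those of interneurons (9 tested), oligodendrocytes (12), microglia (10), ependymal cells (10), choroid plexus (8) and skeletal muscle (4) gave 0 calls by limma-trend and by limma-voom. Calls on the higher side came from endothelium (Cldn5, Ly6c1 and Tek of 10), mural cells (Cspg4 of 10) and astrocytes (Aldh1l1 and Slc1a2 of 10). The astrocyte list as a whole was mixed, with 4 positive and 6 negative log2 changes, 3 of each with an unadjusted p under 0.05, and a median of -0.02. Choroid plexus markers varied most between libraries, summing to 88 to 638 FPKM in hypoxia and 8.75 to 471 FPKM after PBM. The part of these cells in the chaperone values was not tested.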

How the data were processed

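RNA of mouse prefrontal cortex was sequenced in 10 libraries, with groups and replicate numbers taken from the labels. Per the labels' protocols, libraries were made from TRIzol-extracted total RNA. The tools fastp 1.0, HISAT2 and HTSeq and the build GRCm39 are named per the submitters' processing notes. No source used here says whether counting kept the strand, so reads of genes that overlap on opposite strands cannot be told apart. Per the file headers, the authors deposited an FPKM value per gene and library, group means of normalized counts (a signal scaled by size factors), a fold change as a ratio, its log2 value, a p-value and a q-value.

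Genes with at least 0.1 FPKM in at least 5 libraries were tested by limma-trend (limma 3.58.1, R 4.3.3) on log2(FPKM + 1), two-sided, with group as the only term. The pseudocount of 1 shrinks the log2 change of low genes. The script was tested on simulated data. Reads were recovered from the FPKM columns and the authors' group means; 100% were whole within 0.01. They served only for depth and for a limma-voom alternative. The labels do not say what the replicate numbers mark, and the numbers were not taken as pairs. Promoter sequences came from RefSeq (GRCm38.p6). No entry was found for 14 members, among them Hspa8, Hsp90aa1 and Hsp90ab1.

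Members, lists and alternatives were chosen with earlier results of these data known, and the grouping by role was written after the values were seen. The genes named by rule are the called members, the 2 with the smallest p and the most abundant of each family, the HSF1-responsive list, and up to 4 called genes, or else the 2 with the smallest p, of each other list. Other members, such as Dnajb9 and Dnajc6, were named after their values were seen, and the striatal and non-neuronal marker lists are given mainly by counts.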

Additional observations from a re-analysis of the deposited data

Results flagged for a closer look

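In 52 groups of 5 libraries checked for the named members, 5 held a library far from the other 4 by Dixon's criterion, where chance gives about 1 in 20 groups. Hspa8 was lowest in PBM library 1 at 757 FPKM, with the other 4 PBM libraries at 815 to 825 FPKM. Hsp90aa1 was lowest in hypoxia library 5 at 350.3 FPKM, with the others at 369 to 376 FPKM, and lowest in PBM library 3 at 322 FPKM, with the others at 356 to 369 FPKM. Hspb1 was highest in hypoxia library 3 at 5.21 FPKM, with the others at 3.24 to 3.74 FPKM. Bag3 was lowest in hypoxia library 5 at 2.78 FPKM, with the others at 3.12 to 3.26 FPKM. None of these 4 genes was called with all 10 libraries or with any library left out.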

How the results depend on the processing

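The 26 named members under 19 alternatives gave 493 log2 changes, of which 458 kept their sign and their side of the threshold, 5 lost a call, 4 gained one and 26 changed sign, over 9 members. The count of members called lower was 2, and from 1 to 3 with 1 library left out. It was 3 with a minimum of 1 FPKM, which added Bag5 (limma adjusted p = 0.0489). No member was called higher except under limma-voom, which called 1, Hspa12a. With the striatal mean as a covariate 0 members were called lower, and 0 genes in all. The medians then were 0.012 over all members, 0.0061 for HSP90, 0.10 for HSP60/HSP10, -0.039 for BAG, 0.014 for DNAJA, 0.0083 for DNAJB and -0.11 for HSPB, beside -0.02 for DNAJA and DNAJB and -0.06 for HSPB without it, and the log2 changes that turned were those of Bag1 (0.040), Dnaja1 (0.051), Dnajb6 (0.036), Dnajc2 (0.068), Hsp90aa1 (0.016), Hspa4l (-0.0041), Hspd1 (0.092) and Hspe1 (0.11). The cause of these turns was not tested. Bag1 turned to 0.0011 under median-ratio scaling and under limma-voom and to 0.013 under upper-quartile scaling, where Dnaja1 turned to 0.0067. With 1 library left out, Bag1 ran from -0.019 to 0.011, Dnaja1 from -0.024 to 0.017, Hspb1 from -0.058 to 0.11, Hspd1 from -0.047 to 0.0042 and Hspe1 from -0.082 to 0.0028. With the replicate number as a block, 0 members were called higher and 2 lower, Dnajb5 (limma adjusted p = 0.0288) and Dnajb4 (limma adjusted p = 0.0446), while calls over all genes went from 166 higher and 245 lower to 105 and 151. Libraries of the same number correlated at -0.06, 0.21, -0.07, -0.04 and -0.04, and only number 2 correlated best with its own number, so the numbers were not taken as pairs. Depth limits Dnajb3, Dnajb13, Hspa1l and Hspb2, which had at most 43 reads in any library.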
